A study of Erysimum cheiri and Matthiola incana and Raphanus sativus with 44 samples.

Results

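CHS, CHI, CHIL and F3H, the early genes of flavonoid synthesis, were followed through the petals of 10 Brassicaceae species. They were found by locus identifier, AT5G13930 for CHS, AT3G55120 for CHI, AT5G05270 for CHIL and AT3G51240 for F3H, and they are 4 of the 34133 Arabidopsis thaliana loci for which each species has a value (34131 in the Brassica table). All 4 loci were present in all 10 tables.

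Chalcone synthase, encoded by CHS, builds naringenin chalcone, and chalcone isomerase, encoded by CHI, closes its ring to naringenin. CHIL encodes a chalcone isomerase-like protein that lacks this isomerase activity and, in Arabidopsis, raises flavonoid output as a partner of the early enzymes. Flavanone 3-hydroxylase, encoded by F3H, oxidises naringenin to dihydrokaempferol, from which both the colourless flavonols and the anthocyanins of violet, pink and red petals are made. The genes are therefore shared by pigmented and pale flowers, whereas the later genes DFR, LDOX and TT19 serve the anthocyanin branch and, in seed coats, proanthocyanidins.

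Petals of flowers at the stage labelled half-open, from greenhouse plants, were profiled by directional RNA-seq of poly(A) RNA. There were 22 forms, each with 2 libraries. The 2 Aubrieta columns are identical and were counted as 1 library, which leaves 43 of 44. The series calls the 2 libraries of a form biological replicates, and the labels do not say how many plants entered a library. Forms are named by the letter codes of the sample titles, with the colour the labels give. Raphanus sativus had forms DP (labelled violet), LP (white-violet) and W (violet), and Orychophragmus violaceus had P (violet) and W (white-violet). Matthiola incana had LP (modena), DP (lavender), RB (pink) and W (white). Malcolmia maritima had P (white-violet) and LP (violet), Iberis amara had PI (violet) and P (pink), and Lobularia maritima had P (violet) and W (white). Erysimum cheiri had P (yellow), O (pink), Y (yellow) and B (orange). Aubrieta x cultorum PI (pink), Brassica oleracea Y (yellow) and Eruca sativa Y (labelled brownness) had 1 form each. Letter codes and colour labels do not always point the same way, and Erysimum Y carries the organism label of Eruca and Eruca Y that of Erysimum, so no result below was assigned to a colour.

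The values are FPKM, fragments scaled to locus length and to the mapped reads of a library, as deposited, with the reads of every species assigned to Arabidopsis loci. A low value can therefore come with sequence distance from Arabidopsis, and the copies that a polyploid genome holds of one gene are not separated. For this reason levels of different species are set side by side without a test. Low FPKM values of the 7 species with several forms fall on whole steps, each worth 1 read. The loci with such steps held between 19429 reads in a Lobularia library and 1028444 reads in a Malcolmia library, which is a part of each library, and the full depth is unknown. Of 6 petal identity genes, such as AP3 and PI, at least 5 were above 0 in every library. Pollen genes summed to between 0 and 6889 FPKM in a library, with the highest sums in Raphanus W.

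CHS had the highest FPKM of the 4 genes in 35 of the 41 libraries that held any of them. It was above 0 in all 10 species, reached 7182 FPKM in a Malcolmia P library, and lay at the median percentile of 97.9 among the loci above 0 of its library. F3H was above 0 in 38 of 43 libraries and 9 species, with a highest value of 1914 FPKM in Aubrieta and a median percentile of 88.9. CHIL was above 0 in 31 libraries and 8 species, with a highest value of 999 FPKM in Erysimum O and a median percentile of 92.2. CHI was the sparsest gene, above 0 in 17 libraries and 6 species, and listed at 0 in 26 libraries. In all 17 libraries where the 4 genes were above 0, CHI was the lowest of them.

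**Figure D1:**
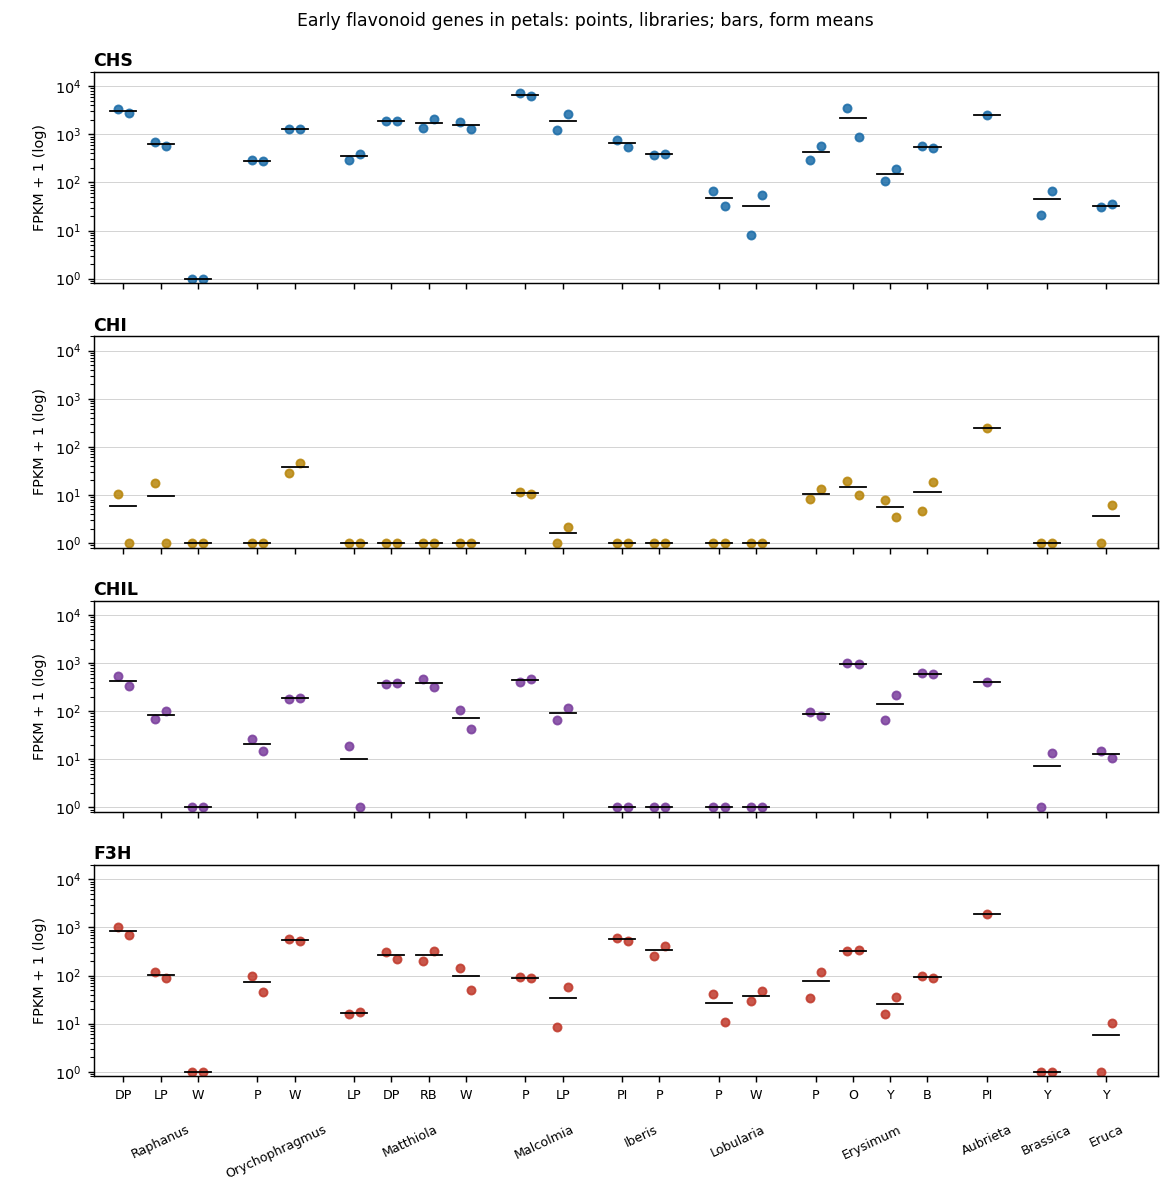
FPKM + 1 (log axis) of CHS, CHI, CHIL and F3H in the 22 forms, with forms grouped by species along the axis; each point is a library and each bar the mean of a form. CHS is above 0 everywhere but in the 2 Raphanus W libraries, while CHI is listed at 0 in 26 of 43 libraries.

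Across the 22 forms, CHS averaged highest in Malcolmia P, at 6688 ± 697 FPKM (SD, n = 2), followed by Raphanus DP at 3036 ± 421 FPKM (SD, n = 2), with no overlap between them. The next forms, Aubrieta PI at 2514 FPKM, Erysimum O at 2221 ± 1888, Malcolmia LP at 1929 ± 979, Matthiola DP at 1911 ± 21.3, Matthiola RB at 1757 ± 529 and Matthiola W at 1540 ± 366 FPKM, could not be ordered, since each overlapped its neighbour. At the low end CHS averaged 47.6 ± 23.4 FPKM in Lobularia P, 43.2 ± 32.4 in Brassica Y, 31.9 ± 2.68 in Eruca Y and 31.0 ± 33.6 in Lobularia W (SD, n = 2 each), again with overlapping ranges. Raphanus W closed the order with CHS listed at 0 in both libraries.

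The other genes ranked the forms differently. F3H averaged highest in Aubrieta PI (1914 FPKM, 1 library), Raphanus DP (853 ± 220 FPKM), Iberis PI (570 ± 66.1 FPKM) and Orychophragmus W (548 ± 20.5 FPKM), while Malcolmia P, first by CHS, was in 12th place by F3H at 89.3 ± 2.03 FPKM. CHIL averaged highest in Erysimum O (977 ± 32.1 FPKM) and Erysimum B (601 ± 11.2 FPKM), which did not overlap each other or the next form, Malcolmia P (442 ± 40.8 FPKM; SD, n = 2 throughout). CHI averaged highest in Orychophragmus W among the forms with 2 libraries, at 36.4 ± 12.5 FPKM, and stood at 242 FPKM in the single Aubrieta library.

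The species with 1 form sat at both ends. Aubrieta PI petals had 2514 FPKM of CHS, 242 of CHI, 395 of CHIL and 1914 of F3H, at percentiles of 95.2 or higher among the loci above 0 of that library. Brassica Y petals had 20.2 and 66.1 FPKM of CHS and 0 and 12.3 FPKM of CHIL, with CHI and F3H listed at 0 in both libraries. Eruca Y petals had 30.0 and 33.8 FPKM of CHS, 0 and 5.21 of CHI, 13.7 and 9.71 of CHIL and 0 and 9.39 FPKM of F3H. In both species, whose forms are coded Y, no member exceeded 66.1 FPKM. Read steps were sought only in the 7 species with several forms, so the depth behind these values is unknown.

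FPKM is per length, so the genes were set against each other within a library. A ratio can also come with the sequence distance of either gene from its Arabidopsis locus, which was not tested. The ratio of F3H to CHS ran from 0.00613 to 3.89 over the 38 libraries with both genes above 0, with a median of 0.169. The highest value is that of Lobularia W library 1, where CHS had 7.16 FPKM, or 2.28 reads if the locus is of typical length. The log2 ratio was 1.96 in that library and -0.26 in library 2 of the form. The ratio of CHIL to CHS ran from 0.0321 to 1.15 over 31 libraries, with a median of 0.157. CHI stood at 0.000457 to 0.154 of CHS over 17 libraries, with a median of 0.0209, and CHIL exceeded CHI in all 17, by 1.63 to 171 times. CHIL and CHI were closest in Aubrieta (395 and 242 FPKM) and in Eruca library 2 (9.71 and 5.21 FPKM). In the species with several forms they were further apart, but there CHI rested on 15 reads or fewer in every library.

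Iberis had nearly as many FPKM of F3H as of CHS, with log2 ratios of F3H to CHS of -0.31 and -0.09 in PI petals and -0.54 and 0.07 in P petals. Malcolmia had the lowest ratios, with log2 values of -6.31 and -6.14 in P petals and -7.35 and -5.49 in LP petals. Erysimum B petals had log2 ratios of CHIL to CHS of 0.11 and 0.17, so CHIL had slightly more FPKM than CHS there. The same held in library 2 of Erysimum O (0.11, with -1.83 in library 1) and of Erysimum Y (0.20, with -0.76 in library 1). In Matthiola W, RB and DP the values lay between -4.96 and -1.57. The libraries of a form differed by a median of 0.47 in the log2 ratio of F3H to CHS (18 forms) and 0.74 in that of CHIL to CHS (14 forms), next to 0.44, 0.61 and 0.54 for the log2 levels of CHS, F3H and CHIL themselves. By this measure the ratios varied between libraries of a form about as much as the levels did.

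**Figure D2:**
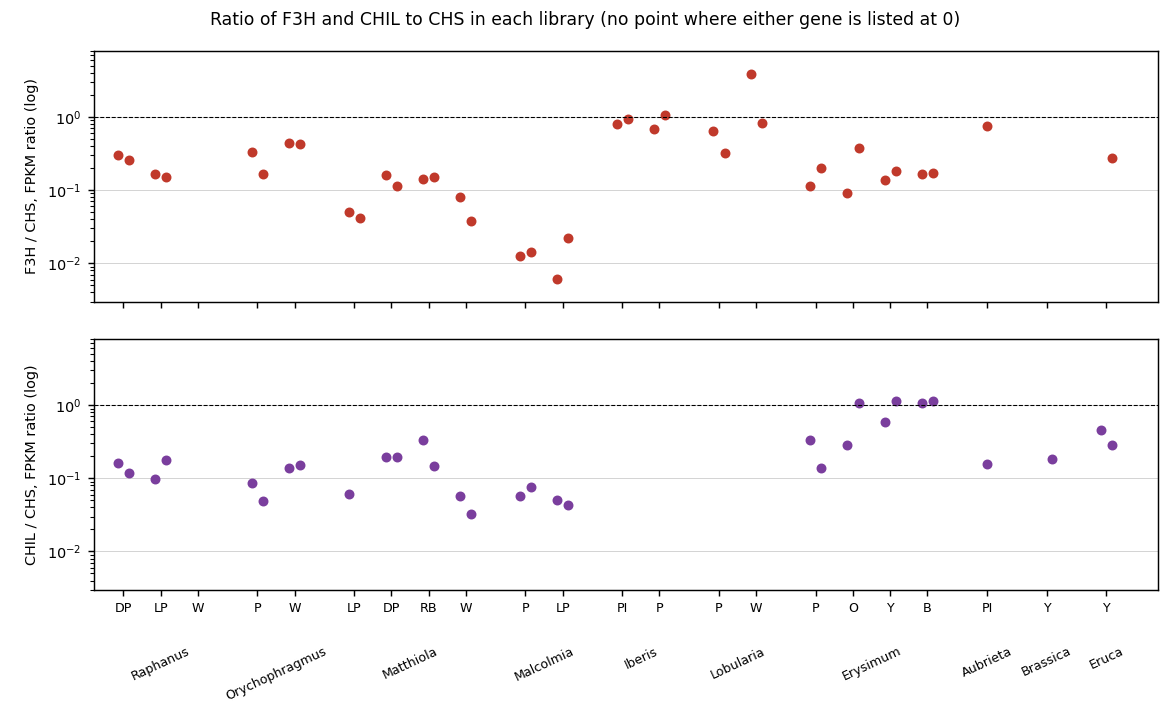
FPKM ratio of F3H to CHS (top) and of CHIL to CHS (bottom) in each library, log axis, forms grouped by species, dashed line at 1; libraries with either gene at 0 have no point. F3H to CHS lies near the dashed line in Iberis and lowest in Malcolmia. CHIL to CHS lies just above the line in both Erysimum B libraries and in library 2 of Erysimum O and of Erysimum Y.

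In the 7 species that had several forms, pairs of forms were compared with limma on log2(FPKM + 1), and a gene was called at a Benjamini-Hochberg adjusted p under 0.05 over all genes tested. Of 66 tests of a member in a comparison, 18 passed, 9 with the member higher and 9 with it lower in the first-named form. Of all genes tested, between 0% and 10.8% were called in either direction, depending on the comparison. CHS was called in 7 of 19 comparisons, F3H in 6 of 19, CHIL in 4 of 17 and CHI in 1 of 11. Calls fell in 8 of 19 comparisons, in Raphanus, Orychophragmus, Matthiola and Malcolmia. Comparisons of a species share libraries, so they are not independent of each other, and the p-values measure only the spread between these libraries.

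**Figure D3:**
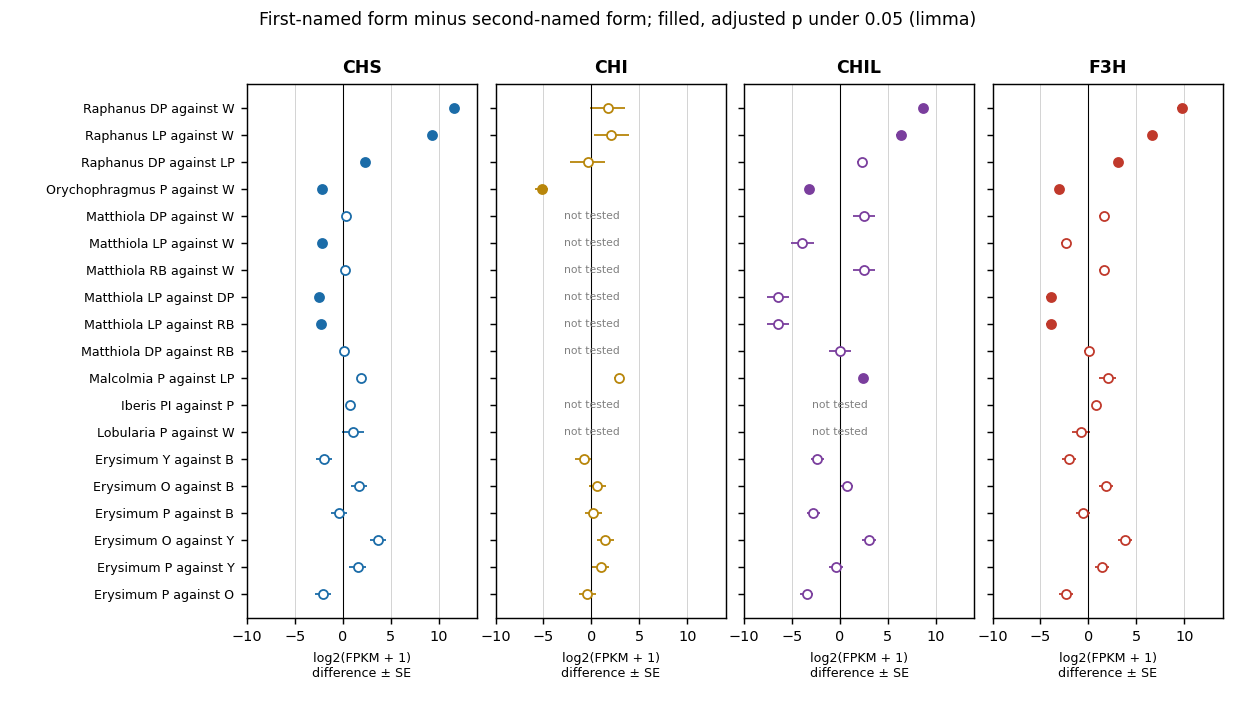
Difference in log2(FPKM + 1) between 2 forms of a species, first-named minus second-named, for each member and comparison, with the standard error from limma; filled points have an adjusted p under 0.05. The 18 filled points lie in Raphanus, Orychophragmus, Matthiola and Malcolmia, and the Erysimum differences of similar size are open.

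In Raphanus sativus CHS, F3H and CHIL were above 0 in DP and LP petals and listed at 0 in W petals. CHS had 3333 and 2738 FPKM in DP petals and 694 and 573 FPKM in LP petals, and was listed at 0 in both W libraries. F3H had 1009 and 697 FPKM in DP petals and 115 and 87.8 FPKM in LP petals, and was listed at 0 in both W libraries. CHIL had 537 and 326 FPKM in DP petals and 67.2 and 100.5 FPKM in LP petals, and was listed at 0 in both W libraries. For these genes both DP libraries lay above both LP libraries, which lay above W; libraries did not overlap for 38.8% of all genes in DP against W, 24.2% in LP against W and 39.3% in DP against LP. CHI had 9.48 and 0 FPKM in DP petals, 16.6 and 0 FPKM in LP petals and 0 in W petals, and its 2 values above 0 stand for 1 read each.

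CHS, F3H and CHIL were higher in DP than in W petals, with adjusted p = 0.0017, 0.0044 and 0.0070 in limma, where 7.07% of all 11448 genes tested were called higher. The same 3 genes were higher in LP than in W petals, with adjusted p = 0.0050, 0.0267 and 0.0433 in limma, where 1.52% of all genes were called higher. The log2(FPKM + 1) differences between DP and W were 11.56 ± 0.30 for CHS, 9.71 ± 0.43 for F3H and 8.71 ± 0.51 for CHIL (SE, n = 2 and 2). Since W is listed at 0, these depend on the added 1 and are no folds. The 2 W libraries at 0 also add no spread to the fit, so the SE and adjusted p against W leave out the counting error of W. A count of 0 CHIL reads allows up to 67.7 and 67.1 FPKM in the W libraries (3 reads in a library, counting error only), so the LP values of 67.2 and 100.5 FPKM lie just under and above that limit and the DP values well above it. On the recovered reads CHIL passed in DP against W (5.43, adjusted p = 0.00092) but not in LP against W (3.49, adjusted p = 0.0575; limma voom). For CHS and F3H no read step was found, and in the W libraries 1 read was worth at least 10.9 FPKM at a locus of typical length.

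Between the forms that held the genes, CHS was 4.79-fold higher in DP than in LP petals (log2 difference 2.26 ± 0.30, adjusted p = 0.0299 in limma) and F3H was 8.40-fold higher (3.05 ± 0.43, adjusted p = 0.0328 in limma), where 4.93% of all genes were called higher. CHIL averaged 431 ± 149 FPKM in DP petals and 83.8 ± 23.5 FPKM in LP petals (SD, n = 2 each), a log2 difference of 2.33 ± 0.51 that did not pass (adjusted p = 0.0667 in limma) but passed on the recovered reads, with 56 and 48 reads in DP and 4 and 5 in LP libraries (1.94, adjusted p = 0.0338 in limma voom). The median gene was itself 0.72 higher in DP on the log2 scale, and 82.7% and 90.2% of genes had a smaller difference than CHS and F3H. The log2 ratio of F3H to CHS was -1.72 and -1.97 in DP petals and -2.59 and -2.71 in LP petals, without overlap, for which the exact two-sided permutation p is 0.333, the smallest that 2 against 2 libraries can give.

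Genes before and after these steps were called as well. In DP against W petals, 2 of 7 phenylpropanoid genes tested, 3 of 5 flavonol genes, 5 of 6 late anthocyanin genes and 1 of 7 regulators were higher and none lower, with median log2 differences of 4.84, 3.66, 7.67 and 2.15 beside 0.86 for all genes. The largest in each list were 4CL3, which activates coumarate (65.9 ± 48.9 FPKM in DP, listed at 0 in W), UGT78D2, a flavonoid glucosyltransferase (96.4 ± 11.1 FPKM, listed at 0 in W), TT19, a glutathione transferase needed for anthocyanin storage (4984 ± 1431 FPKM, listed at 0 in W), and the bHLH regulator GL3 (16.4 ± 0.69 FPKM, listed at 0 in W; SD, n = 2 each). In LP against W petals only 2 of 6 late genes were called, LDOX and TT19, both higher, the larger being TT19 with 1184 ± 288 FPKM in LP petals and 0 in W petals. In DP against LP petals 3 of 6 late genes and 1 of 7 phenylpropanoid genes were higher, led by UGT75C1 (24.1 ± 19.8 FPKM in DP, listed at 0 in LP) and 4CL3 (65.9 ± 48.9 FPKM in DP, listed at 0 in LP). At a locus of typical length 1 read was worth at least 10.9 FPKM in W libraries and at least 8.16 FPKM in LP libraries. At such a locus the DP values of GL3 and UGT75C1 would be only a few reads at that depth. Their listed 0 in W or LP petals therefore does not show that they were absent there.

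Marker lists differed between the forms as well, but only the pollen genes followed the order DP, LP and W, rising where the members fell. The 4 pollen genes summed to 92.8 and 165 FPKM in DP, 1297 and 1404 in LP and 6377 and 6889 in W libraries, with PTEN1 at 0 in both DP libraries. The 4 carpel genes summed to 0 and 0 FPKM in DP, 95.0 and 57.4 in LP and 271 and 49.8 in W libraries. The 6 green tissue genes summed to 3612 and 4073 FPKM in DP, 4069 and 3016 in LP and 981 and 950 in W libraries, and the 6 petal identity genes to 6511 and 6788, 2248 and 1808, and 2750 and 2921 FPKM in DP, LP and W. Their part in the result was not tested, and in bulk petals fewer cells of a type and less RNA per cell cannot be told apart. Plastid loci held 1.69% and 0.872% of the FPKM in DP, 25.1% and 20.1% in LP and 69.2% and 4.08% in W libraries. With plastid and mitochondrial loci left out and each library scaled to the same sum, the members called remained 3, 3 and 2 in the 3 comparisons. Without DP library 1, which is in neither LP nor W, the LP against W calls were lost (adjusted p = 0.067 for each of the 3 in limma), in a fit that called 0 of all genes, where the fit with all libraries called 293.

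In Orychophragmus violaceus all 4 genes were lower in P than in W petals. CHS had 287 and 274 FPKM in P petals, against 1277 and 1267 FPKM in W petals. F3H had 96.8 and 45.0 FPKM in P petals, against 562 and 533 FPKM in W petals. CHIL had 25.1 and 13.6 FPKM in P petals, against 177 and 190 FPKM in W petals. None of these overlapped, as held for 45.6% of all genes. CHI was listed at 0 in both P libraries, against 27.6 and 45.2 FPKM in W petals, and a count of 0 reads allows up to 37.3 and 40.5 FPKM in the P libraries (3 reads in a library), a limit that lies between the values of the W libraries.

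CHS was 4.53-fold lower in P than in W petals (log2 difference -2.18 ± 0.14, adjusted p = 0.0240), F3H 7.72-fold lower (-3.03 ± 0.43, adjusted p = 0.0447) and CHIL 9.49-fold lower (-3.24 ± 0.42, adjusted p = 0.0393), and CHI had a log2 difference of -5.18 ± 0.67 (adjusted p = 0.0393; limma throughout). Among all 13226 genes tested, 3.28% were called lower, and 14.7% had a more negative difference than CHS. The CHIL values stood for 2 and 1 reads in P libraries and 19 and 25 reads in W libraries, and on these reads CHIL passed (-2.69, adjusted p = 0.0155 in limma voom) while CHI, with 0 and 0 reads in P and 3 and 6 in W, did not (-2.44, adjusted p = 0.0860 in limma voom). Relative to CHS, both F3H and CHIL were lower still in P petals, by 0.87 and 1.13 on the log2 scale and without overlap, with an exact two-sided permutation p of 0.333, the smallest possible.

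**Figure D4:**
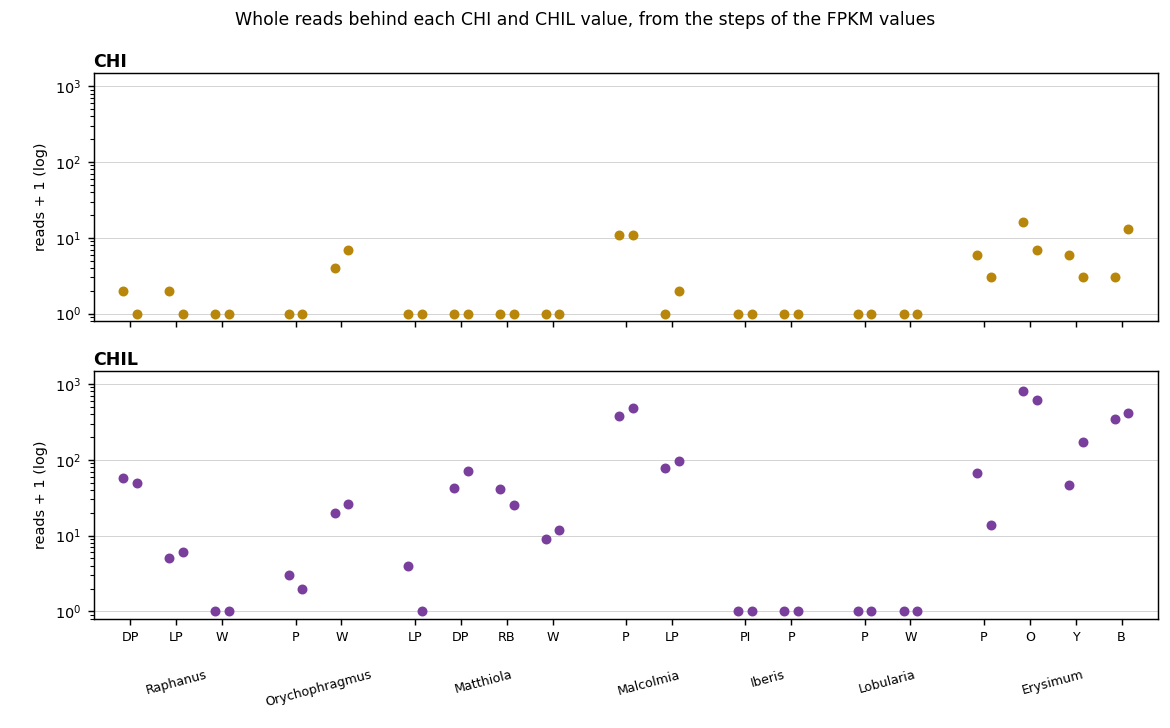
Whole reads + 1 (log axis) behind each CHI and CHIL value, recovered from the steps of the FPKM values, in the 7 species with several forms; each point is a library. CHI rests on 15 reads or fewer in every library, and CHIL on 5 or fewer in Raphanus LP, Orychophragmus P and Matthiola LP.

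Beside the 4 genes, 1 of 7 phenylpropanoid genes and 2 of 6 late anthocyanin genes were lower in P petals and none higher. PAL1, the entry enzyme of phenylpropanoid synthesis, averaged 334 ± 39.3 FPKM in P petals and 1119 ± 7.06 FPKM in W petals, and 5MAT, an anthocyanin malonyltransferase in Arabidopsis, was listed at 0 in P petals and averaged 121 ± 9.90 FPKM in W petals (SD, n = 2 each). None of 8 flavonol genes and 8 regulators was called. The 4 pollen genes summed to 42.7 and 6.73 FPKM in P libraries and 777 and 709 FPKM in W libraries, and their part in the result was not tested. The calls depended on single libraries. Without P library 1 none of the 4 genes was called, nor was any other gene, against 653 genes with all libraries. Without W library 1 or W library 2 only CHS and CHI of the 4 were called, among 2277 and 2066 genes, and without P library 2 all but CHI were, among 1580 genes. F3H also lost its call with no filter on low values and with quantile scaling (adjusted p = 0.0511 and 0.0588 in limma). With organelle loci left out and each library scaled to the same sum, the median gene moved from -0.15 to 0.33. On that scale CHS and CHI were called and CHIL and F3H were not (adjusted p = 0.0628 and 0.0765 in limma). The deposited FPKM summed to 583157 and 684899 in P libraries and 870754 and 1002950 in W libraries.

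In Matthiola incana form LP held the least of the genes. CHS had 298 and 395 FPKM in LP petals, 1896 and 1926 in DP, 1383 and 2131 in RB and 1799 and 1281 FPKM in W petals. F3H had 14.9 and 16.5 FPKM in LP petals, 305 and 216 in DP, 199 and 323 in RB and 145 and 48.5 FPKM in W petals. CHIL had 18.0 and 0 FPKM in LP petals, 372 and 382 in DP, 465 and 311 in RB and 103 and 41.1 FPKM in W petals. For all 3 genes both LP libraries lay below every other library of the species in deposited FPKM, which for W did not hold under the other scaling given below. Libraries did not overlap for 37.5%, 29.6% and 28.3% of all genes in LP against W, DP and RB. CHI was listed at 0 in all 8 libraries, where 3 reads would be 10.9 to 38.5 FPKM, and was not tested.

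CHS was 4.44-fold lower in LP than in W petals (log2 difference -2.14 ± 0.26, adjusted p = 0.0211), where 0.879% of all 13088 genes tested were called lower. It was 5.51-fold lower in LP than in DP petals (-2.47 ± 0.26, adjusted p = 0.0190), where 0.138% were called lower, and 5.07-fold lower in LP than in RB petals (-2.32 ± 0.26, adjusted p = 0.0143), where 0.214% were (limma throughout). F3H was 16.6-fold lower in LP than in DP petals (-3.95 ± 0.52, adjusted p = 0.0394 in limma) and 16.6-fold lower in LP than in RB petals (-3.93 ± 0.52, adjusted p = 0.0228 in limma), and averaged 15.7 ± 1.11 FPKM in LP and 96.8 ± 68.3 FPKM in W petals (SD, n = 2 each), which did not pass (adjusted p = 0.0906 in limma). CHIL did not pass in these comparisons (adjusted p = 0.166, 0.122 and 0.0665 against W, DP and RB in limma). On the recovered reads, 3 and 0 in LP, 41 and 70 in DP, 40 and 24 in RB and 8 and 11 in W libraries, CHIL passed in LP against DP (-5.55, adjusted p = 0.00013) and LP against RB (-5.45, adjusted p = 0.00044) but not in LP against W (-2.53, adjusted p = 0.0624; limma voom). In LP petals F3H was also low relative to CHS, with a log2 difference of -1.55 from DP and -1.69 from RB, without overlap (exact two-sided permutation p = 0.333, the smallest possible). Against W this log2 ratio overlapped, with -4.32 and -4.58 in LP petals and -3.63 and -4.72 in W petals.

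CHS did not pass between forms DP, RB and W. In DP against W petals the log2 difference of CHS was 0.33 ± 0.26 (adjusted p = 0.523 in limma), and in RB against W petals 0.18 ± 0.26 (adjusted p = 0.766 in limma), with overlap in the second. F3H and CHIL had differences of 1.60 ± 0.52 and 2.52 ± 1.17 in DP against W petals and 1.58 ± 0.52 and 2.53 ± 1.17 in RB against W petals, none of which passed, where 2.66% and 7.1% of all genes were called in either direction. No library of W overlapped DP or RB for either gene, as held for 40.3% and 36% of all genes. On the recovered reads CHIL passed in both, with log2 differences of 3.03 in DP against W (adjusted p = 6.1e-05 in limma voom) and 2.92 in RB against W (adjusted p = 0.00021 in limma voom). The ratio of CHIL to CHS was higher by 2.2 on the log2 scale in DP and by 2.37 in RB than in W petals, and that of F3H to CHS by 1.28 and 1.42, all without overlap (exact two-sided permutation p = 0.333, the smallest possible). In DP against RB petals the 3 genes differed by at most 0.15 on the log2 scale, with overlapping libraries, where 0.84% of all genes were called and libraries did not overlap for 31.6%.

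Some genes before and after these steps were called in Matthiola too. In LP against W petals 2 of 6 late genes, 1 of 8 phenylpropanoid genes and 1 of 6 flavonol genes were lower and none higher, led by 5MAT (13.3 ± 13.0 FPKM in LP and 367 ± 112 in W petals), 4CL3 (1659 ± 91.7 FPKM in LP and 3810 ± 202 in W petals) and UGT78D2 (262 ± 63.8 FPKM in LP and 1544 ± 120.5 in W petals; SD, n = 2 each). In LP against DP petals 5MAT and LDOX, the anthocyanidin synthase gene, were lower, with LDOX at 51.3 ± 14.5 FPKM in LP and 305 ± 0.60 FPKM in DP petals and 5MAT at 13.3 ± 13.0 FPKM in LP and 275 ± 28.6 FPKM in DP petals. In LP against RB petals 5MAT, at 260.5 ± 33.2 FPKM in RB petals, and LDOX were lower, while of 8 phenylpropanoid genes 4CL1 was higher (102 ± 22.5 FPKM in LP and 14.8 ± 7.88 FPKM in RB petals) and 4CL3 lower. Against W, LDOX was higher in DP and RB petals, and TT19 was lower in every other form (2780 ± 415 FPKM in LP petals). UGT78D2 was also lower than in W petals in DP (400 ± 12.6 FPKM) and RB (556 ± 151 FPKM), and 4CL3 in DP (1722 ± 28.5 FPKM; SD, n = 2 each). The TT19, UGT78D2 and 4CL3 calls against W were thus not particular to LP. LDOX averaged 305 ± 0.60 FPKM in DP and 306 ± 28.8 in RB petals, against 94.8 ± 29.4 FPKM in W petals, and TT19 averaged 2707 ± 50.7 FPKM in DP and 1995 ± 26.2 in RB petals, against 8216 ± 35.9 FPKM in W petals (SD, n = 2 each). None of 7 regulators was called in any Matthiola comparison.

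In Matthiola the scaling of form W bears on these values. The most abundant locus held at most 2.35% of all FPKM in LP, 30.0% in DP and 6.34% in RB libraries, against 35.8% and 50.7% in W libraries a and b. In W libraries a and b plastid loci held 0.376% and 2.65% and mitochondrial loci 0.969% and 3.81%. Their most abundant locus is therefore nuclear and stays in the sum used next. With organelle loci left out and each library scaled to a sum of 1000000, CHS stood at 492 and 669 in LP, 2090 and 3310 in DP, 2311 and 3480 in RB and 1248 and 486 in W libraries, so that LP and W overlapped. On that scale F3H reached 24.7 and 27.9 in LP petals, against 101 and 18.4 in W petals, and CHIL 29.7 and 0 in LP petals, against 71.2 and 15.6 in W petals, so these overlapped as well. CHS in DP and RB did not overlap W on that scale, with log2 differences of 1.75 (adjusted p = 0.0942 in limma) and 1.86 (adjusted p = 0.0647 in limma), against medians of 0.99 and 0 for all genes. On it the median gene was 1.08 higher in LP than in W petals, the CHS difference was -0.44 (adjusted p = 0.658 in limma), and no member was called in LP against W, LP against DP or LP against RB, where 1166, 0 and 27 of all genes were, against 174, 30 and 95 in deposited FPKM. In LP against DP the CHS and F3H differences on that scale were -2.2 and -3.70, close to the unscaled ones, with adjusted p = 0.174 and 0.173 in limma. The 6 green tissue genes summed to 468 and 920 FPKM in LP, 701 and 667 in DP, 470 and 507 in RB and 2107 and 1758 in W libraries, and their part in the result was not tested. Leaving out 1 library ended most of these calls, in part together with those of nearly all genes. CHS in LP against W kept its call without W library b alone, and no member was called in LP against DP or LP against RB without W library b, RB library 1, RB library 2, DP library 1 or DP library 2. Of all genes these fits called 0, 0, 0, 817 and 600 in LP against DP and 2, 42, 6, 185 and 147 in LP against RB.

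In Malcolmia maritima, whose libraries held 654743 to 1028444 recovered reads, CHIL was the called member. CHIL had 413 and 471 FPKM in P petals, against 63.1 and 114 FPKM in LP petals, from 376 and 488 reads in P libraries and 78 and 94 reads in LP libraries. CHS had 7182 and 6195 FPKM in P petals, against 1236 and 2621 FPKM in LP petals. CHI had 10.7 and 9.32 FPKM in P petals, against 0 and 1.20 FPKM in LP petals. For these genes both P libraries lay above both LP libraries. F3H had 90.7 and 87.8 FPKM in P petals, against 7.58 and 58.1 FPKM in LP petals, without overlap but with the LP libraries far apart.

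CHIL was 4.99-fold higher in P than in LP petals (log2 difference 2.36 ± 0.33, adjusted p = 0.0460 in limma), where 2.77% of all 12871 genes tested were called higher. CHS (1.89 ± 0.40, adjusted p = 0.0587), CHI (2.89 ± 0.53, adjusted p = 0.0512) and F3H (2.0 ± 0.88, adjusted p = 0.182) did not pass in limma. Their differences exceeded those of 96.4%, 99.4% and 97.1% of all genes tested, and libraries did not overlap for 63.5% of all genes. On the recovered reads, 10 and 10 in P and 0 and 1 in LP libraries for CHI, both CHI (3.58, adjusted p = 0.0404) and CHIL (2.26, adjusted p = 0.0117) passed in limma voom. None of the 6 phenylpropanoid, 6 flavonol, 6 late anthocyanin and 7 regulator genes tested was called, with medians of 0.62, 0.16, 1.25 and 0.36 on the log2 scale beside -0.03 for all genes. The 6 green tissue genes summed to 7011 and 5870 FPKM in P libraries and 2320 and 2451 FPKM in LP libraries, with 3 called higher. The 4 pollen genes summed to 2.37 and 2.56 FPKM in P libraries and 76.3 and 11.5 FPKM in LP libraries, with none of the 3 tested called. Their part in the result was not tested. With organelle loci left out and each library scaled to the same sum, the median gene moved to -0.57 and CHIL kept its call (1.71, adjusted p = 0.0401 in limma). Plastid and mitochondrial loci held at most 0.136% and 0.305% of the FPKM in these libraries. The deposited FPKM summed to 1087590 and 1006830 in P libraries and 681870 and 648186 in LP libraries. How far each step moved the median was not tested. The CHIL call was lost without LP library 1, P library 1 or P library 2, in fits that each called 0 of all genes, against 526 with all libraries.

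In Iberis amara and Lobularia maritima CHS and F3H were above 0 in every library, and CHI and CHIL were listed at 0 in all of them. A count of 0 reads allows up to 40.3 FPKM of CHIL in the shallowest Iberis library and 24.7 FPKM in the shallowest Lobularia library (3 reads), so CHIL at such low levels would not have been detectable at this depth. In Iberis CHS had 766 and 555 FPKM in PI petals, against 371 and 389 FPKM in P petals, and F3H had 616 and 523 FPKM in PI petals, against 254 and 409 FPKM in P petals. The libraries did not overlap for either gene, as for 25.1% of all genes, and neither difference passed (log2 0.78 ± 0.38 and 0.81 ± 0.42, adjusted p = 0.760 for both in limma). In Lobularia CHS had 64.1 and 31.0 FPKM in P petals, against 7.16 and 54.7 FPKM in W petals, and F3H had 40.8 and 9.87 FPKM in P petals, against 27.9 and 45.9 FPKM in W petals. These ranges overlapped, where 19.6% of all genes did not, with log2 differences of 1.10 ± 1.14 and -0.79 ± 0.90 (adjusted p = 0.710 for both in limma). In each species 0 genes, 0% of those tested, were called by limma, where 580 of 10555 genes in Iberis and 374 of 8801 in Lobularia had an unadjusted p under 0.05. With single libraries left out up to 1489 genes in Iberis and 1732 in Lobularia were called, and with organelle loci left out of the scaling 16 in Iberis and 0 in Lobularia, and no member in any of these.

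In Erysimum cheiri the genes were highest in form O. CHS had 295 and 575 FPKM in P petals, 3556 and 886 in O, 108 and 187 in Y and 565 and 528 FPKM in B petals. F3H had 33.9 and 116 FPKM in P petals, 325 and 334 in O, 14.6 and 34.2 in Y and 94.8 and 89.8 FPKM in B petals. CHIL had 97.2 and 79.0 FPKM in P petals, 999 and 954 in O, 63.9 and 216 in Y and 609 and 593 FPKM in B petals. For these 3 genes both O libraries lay above every other library of the species. CHI had 7.29 and 12 FPKM in P petals, 18.3 and 9.11 in O, 6.87 and 2.44 in Y and 3.55 and 17.2 FPKM in B petals, all forms overlapping B.

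No member was called in the 6 Erysimum comparisons, in which 0.0203% (Y against B and O against Y), 0.0135% (O against B and P against O), 0.00676% (P against B) and 0.027% (P against Y) of all 14788 genes tested were called. Libraries did not overlap for 46.3% of all genes in Y against B, 36.1% in O against B, 38.2% in P against B, 29.7% in O against Y, 31.5% in P against Y and 27.9% in P against O. CHS and F3H differed most in O against Y, with log2 differences of 3.63 ± 0.84 for CHS, 3.82 ± 0.72 for F3H and 3.04 ± 0.70 for CHIL (adjusted p = 1, 0.766 and 1 in limma, unadjusted p = 0.0029, 0.00094 and 0.0029), and 99.6% or more of all genes had a smaller difference. In O against B the log2 differences were 1.70 ± 0.84 for CHS, 1.83 ± 0.72 for F3H and 0.70 ± 0.70 for CHIL, and in P against O they were -2.11 ± 0.84, -2.37 ± 0.72 and -3.46 ± 0.70. The log2 ratio of F3H to CHIL was -1.52 and 0.56 in P petals, against -2.68 and -2.72 in B petals. P library 2 had 140357 recovered reads, against 534780 to 670270 in the other 7 libraries, and its green tissue genes summed to 19459 FPKM. Without P in the fit, a choice made after seeing the data, 0 members were called in O against Y, O against B and Y against B. The pathway lists held no call in Erysimum, Iberis or Lobularia.

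The 4 genes varied together to different degrees. Over the 38 libraries of the 7 species, with log2(FPKM + 1) centred on the mean of each species, CHS and F3H had r = 0.94, CHIL and F3H r = 0.90 and CHS and CHIL r = 0.83, while CHI had r between 0.42 and 0.50 with the others. Without the 6 Raphanus libraries the first 3 values were 0.85, 0.82 and 0.70 over 32 libraries. These are descriptions, since libraries of a form, and the scaling of a library, are shared by all genes in it, and CHI and CHIL enter as 0 in whole species.

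Among 10326 loci compared in this way, the 5 most like the mean of the 4 genes were TT19 (r = 0.84), the phenylalanine ammonia-lyase gene PAL2 (0.81), the flavonoid 3'-hydroxylase gene F3PRIMEH (0.79), AT5G17990 (0.79) and UGT78D2 (0.78). The Raphanus libraries entered all likeness values of this paragraph, which were not computed without them. LDOX was in 8th place (0.76) and DFR, the dihydroflavonol reductase gene, in 11th (0.74). The genes nearest to CHS alone were TT19 (0.91), LDOX (0.84) and PAL2 (0.84), and those nearest to F3H alone were TT19 (0.83), PAL2 (0.82) and LDOX (0.80). Those nearest to CHIL were AT5G17990 (0.79), AT1G02920 (0.77) and AT3G61490 (0.70), and those nearest to CHI were AT5G01880 (0.71), AT5G67330 (0.66) and AT3G07130 (0.65), none of which is on the pathway lists. Loci were ranked only if they averaged at least 1 FPKM in a form in at least 5 species, so not every listed regulator has a place. Of the ranked regulators known to act on the pathway in Arabidopsis, GL3 was the nearest, in place 200 (0.53). It was followed by MYBL2 (0.37), PAP2 (0.35), TT8 (0.29), TTG1, a WD40 cofactor (0.22), HY5 (0.13), the anthocyanin regulator PAP1 (0.12), MYB12, an activator of the early genes (0.10), and EGL3 (0.05). Relatives of CHS and CHI, of which 1 to 4 of 5 were tested in a species, had no call in any of the 19 comparisons.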

How the data were processed

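Petal libraries of 10 species were used as the authors deposited them, as FPKM per Arabidopsis locus; the series' design text names Arabidopsis as the reference for expression values, and TopHat, Cufflinks, Cuffdiff and DESeq are named in the submitters' processing notes, with versions and settings not given in the sources used here. The 3 entries that are not genes were left out. Both Matthiola W columns have one heading, so these libraries are written a and b. It was inferred that the Erysimum columns with the heading PI belong to the titles with code P.

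Genes whose mean reached 1 FPKM in any form were fitted per species with limma 3.58.1 (R 4.3.3) on log2(FPKM + 1), with all forms in 1 fit and the prior variance following mean expression; p-values were adjusted by Benjamini-Hochberg over the genes of each of the 19 comparisons. Adding 1 pulls differences of low genes towards 0. Whole reads were recovered at loci whose low values were multiples of a step, found for 13722 of 16630 loci, CHI and CHIL among them but not CHS and F3H; 98.4% to 100.0% of their low values lay within 0.1 of a whole number, against 20% without steps, but the loci were chosen for this. These reads went into limma voom, with at least 4 reads in all. Scripts were tested on simulated data. Ratios were compared by exact permutation. Wherever organelle loci were left out of the scaling, the FPKM of each library was also scaled to the same sum.

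The members, the gene lists and the tests were chosen with earlier results of these data known. Named besides the members are the called gene with the largest difference in each pathway list where a member was called, and the 5 loci most like the members (3 for each member). LDOX in Raphanus and Matthiola, TT19, 4CL3 and UGT78D2 in Matthiola, LDOX and DFR in the order of likeness, and the regulators in that order were chosen after their values were seen. Other settings tried were no filter, a pseudocount of 0.1, quantile scaling, a replicate block, only the 2 compared forms in a fit, voom and each library left out; scaling without organelle loci, Erysimum without form P, and Matthiola without form W, with and without a replicate block, were added after seeing the data.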

Additional observations from a re-analysis of the deposited data

Results flagged for a closer look

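Forms coded LP and W occur in both Raphanus and Matthiola, and 3 of the 4 genes lay on opposite sides in them. In LP against W petals CHS, F3H and CHIL were higher in both Raphanus LP libraries than in both W libraries, and lower in both Matthiola LP libraries than in both W libraries. The Raphanus minus Matthiola gap between the log2(FPKM + 1) differences was 11.44 for CHS, 9.01 for F3H and 10.30 for CHIL. The difference was not tested, since species were never fitted together, and the Raphanus part rests on W values listed at 0, while in Matthiola only CHS was called. The codes are only letters that 2 species share, and the labels give white-violet for LP and violet for W in Raphanus, and modena for LP and white for W in Matthiola. With organelle loci left out and each library scaled to the same sum, the Matthiola LP and W libraries overlapped for all 3 genes. The pattern therefore did not hold on that scale. Of 9213 loci tested in both species, 3.61% were likewise higher in Raphanus LP and lower in Matthiola LP without overlap, and 7.6% lay on opposite sides either way; within 1 species LP and W did not overlap for 24.2% of genes in Raphanus and 37.5% in Matthiola.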

How the results depend on the processing

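The number of members called changed with the processing in Raphanus, Orychophragmus, Matthiola and Malcolmia; unless the construction of an alternative shows it, the cause was not tested. With a replicate block, 1 member was called in Raphanus LP against W (5 of all genes), 0 in DP against LP (27 of all genes) and 3 in Malcolmia P against LP (891 of all genes). In Matthiola the W columns carry no number of their own, so a block could be fitted only between the other forms. With W out of the fit, a choice made after seeing the data, the count was 0 in LP against DP and 1 in LP against RB without the block (2 and 12 of all genes), and 0 in both with it (0 and 5 of all genes). The block changed no other count. Same-numbered libraries had correlated deviations of -0.05 to 0.37, highest between Erysimum O and Y; with at most 2 pairs and no label on what a number marks, they are treated as unpaired. With only the 2 compared forms in the fit, and so fewer libraries, the count was 0 in Raphanus LP against W and in Matthiola LP against W, LP against DP and LP against RB, and 1 in Matthiola DP against W; of all genes, 0, 1, 0 and 0 were called in those first 4, so their 0 is not particular to the members. With organelle loci left out and each library scaled to the same sum, the count was 2 in Orychophragmus and 1 in Matthiola RB against W. It was 0 in Matthiola LP against W, LP against DP and LP against RB. With a pseudocount of 0.1 or no filter it was 1 in Matthiola LP against DP and 0 in Malcolmia, where quantile scaling also gave 0 and each of the 3 settings called 2 of all genes; no filter and quantile scaling gave 3 in Orychophragmus, F3H being lost.

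With 1 library left out, a form is left with 1 library that is assumed to vary like the others. In some of these fits no gene at all was called, as given above, so a lost call need not be particular to the members. The count then ran from 3 to 3 in Raphanus DP against W, 0 to 3 in LP against W, 2 to 3 in DP against LP, 0 to 3 in Orychophragmus, 0 to 1 in Matthiola DP against W and RB against W, 0 to 2 in LP against W, LP against DP and LP against RB, 0 to 2 in Malcolmia, and 0 to 1 in Erysimum P against Y and P against O.

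Differences that changed sign were not called in the first place. With single libraries left out, the log2 difference of CHI in Raphanus DP against LP ran from -2.44 to 1.69 (1.32 without DP library 2), and that of CHS in Matthiola RB against W from -0.13 to 0.49 (-0.07 without W library b). In Matthiola DP against RB it ran from -0.16 to 0.47 for CHS, -0.30 to 0.28 for CHIL and -0.33 to 0.37 for F3H (CHIL 0.0067 and F3H -0.23 without DP library 1), while CHIL was 0.11 with quantile scaling and 0.10 with voom, and CHS and F3H were -0.11 and -0.24 without organelle loci. In Lobularia it ran from -0.29 to 2.48 for CHS and -1.76 to 0.18 for F3H. In Erysimum CHI ran from -1.81 to 0.19 in Y against B, -0.38 to 1.62 in O against B, -0.81 to 1.19 in P against B (-0.14 without P library 2) and -0.89 to 0.038 in P against O. CHS and F3H ran from -0.89 to 0.075 and -1.42 to 0.33 in P against B, and CHIL from -1.29 to 0.45 in P against Y. CHI rests on 15 reads or fewer in every library of the 7 species, and the depth behind CHS and F3H is unknown.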
